A study of Mus musculus with 10 samples.

Results

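The lungs of mice given house dust mite extract (HDM) together with nafamostat were compared with the lungs of mice given HDM alone, gene by gene, across all targets of an amplicon panel. The HDM+Nafamostat and HDM groups held 3 libraries each, 6 of the 10 in the series, and the test ran on the 14413 of 23930 targets whose counts in these 6 libraries added up to 30 or more. All mice were wild-type female BALB/c, bought at 8 to 9 weeks of age. HDM+Nafamostat mice received the extract intranasally 2 times per week, with nafamostat at 20 mg/kg given intraperitoneally 30 minutes before each instillation, and HDM mice received the extract. The 4 PBS mice, whose levels are given beside the comparison, received PBS by the intranasal route. The vehicle of nafamostat was 3% acetic acid in PBS, and whether the sequenced HDM and PBS mice received it is not stated in the labels. The course was 3 weeks in the labels and methods and 6 weeks in the figure legends, and the dose of extract was 10 mg in 30 ml in the labels and 10 µg in 30 µl in the methods. RNA came from the upper portion of the left lobe, with 1 library per mouse, and the methods speak of separate experiments. P-values therefore measure the spread between 3 mice per group, including that of sampling and library preparation.

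Nafamostat is a synthetic inhibitor of trypsin-like serine proteases, among them thrombin, plasmin, kallikrein, complement proteases and mast cell tryptase. HDM extract itself holds proteases, and repeated inhalation by mice gives an allergic airway inflammation in which type 2 cytokines, made by T helper cells and innate lymphoid cells, draw eosinophils into the lung, turn macrophages to an alternatively activated state and turn airway secretory cells into mucus-producing goblet cells. The question of the comparison was which lung transcripts differ when the protease inhibitor is given before each instillation of the allergen.

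The 6 libraries held 7105946 to 9666354 counts and 15704 to 18015 targets with counts, and their 10 most abundant genes took 12.7% to 16.1% of counts. Levels are given as CPM, the count set to a common library total, scaled by TMM over the 10 libraries, and a level compares libraries and not genes, since each gene is read through its own amplicon. The lung label was checked against defining markers. Sftpc, the surfactant protein of alveolar type 2 cells, stood at 14004 to 24794 CPM over the 6 libraries, and Scgb1a1, the secretory protein of club cells, at 20776 to 30034 CPM. Summed olfactory receptor counts, which lung is not known for, were 36.6, 426 and 27.8 CPM in HDM+Nafamostat libraries, against 126, 249 and 1591 CPM in HDM libraries. The count of albumin, a liver transcript, was 4, 671 and 4 in HDM+Nafamostat libraries, against 471, 843 and 129 in HDM libraries. HDM+Nafamostat replicate 2 stood above the others of its group in both measures and HDM replicate 3 above the others of its group in olfactory receptor counts, while HDM replicate 3 had the lowest albumin count of its group. Leaving both libraries out gave 147 genes lower and 15 higher. In bulk tissue, fewer cells of a type and less RNA per cell cannot be told apart.

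With edgeR's quasi-likelihood test, 105 targets were called lower in HDM+Nafamostat lungs (0.729% of those tested) and 15 higher (0.104%), a call needing both an adjusted p under 0.05 and a 2-fold or larger change. At an adjusted p under 0.05 without a fold threshold, 284 were lower (1.97%) and 137 higher (0.951%). The log2 fold changes of called genes ran from -4.38 to -1.004 among the lower, with a median of -1.24, and from 1.00 to 1.35 among the higher, with a median of 1.10. The value of -4.38 is that of Apoa1, a liver transcript at 0 in 2 of the HDM+Nafamostat libraries. Over all targets the median was -0.01 and the quartiles were -0.32 and 0.23. In all 120 called genes the 3 HDM+Nafamostat libraries lay outside the range of the 3 HDM libraries, which 12.9% of all targets did on the lower side and 12.6% on the higher side. The adjusted p used for single genes below is that of this test over the 14413 targets, with no fold threshold, and "passed" means an adjusted p under 0.05.

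**Figure D1:**
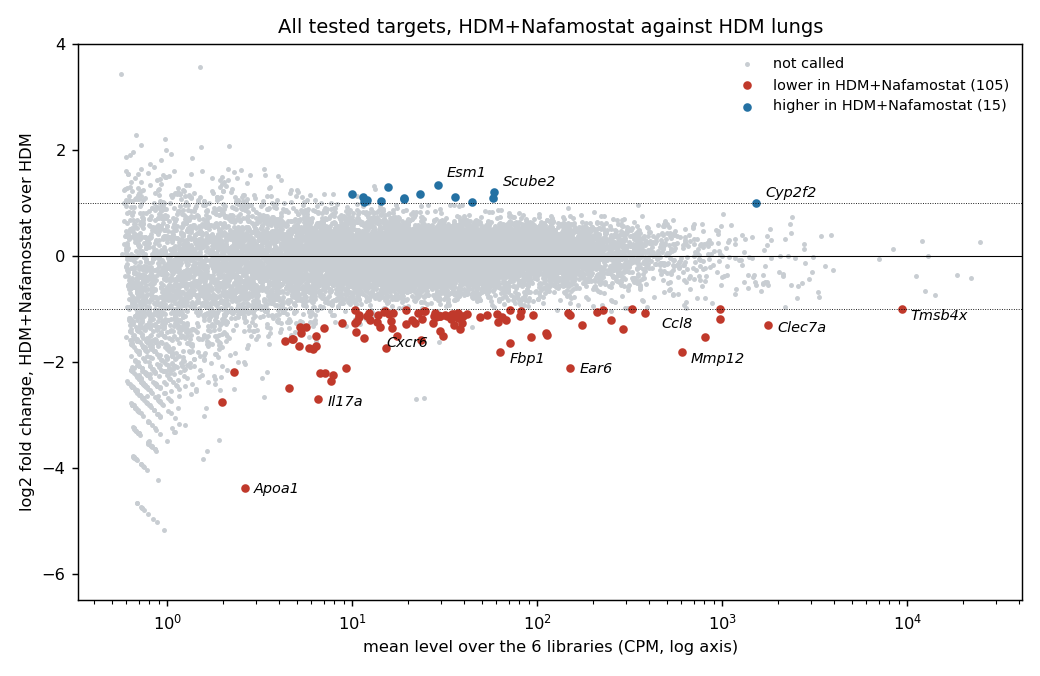
Log2 fold change of HDM+Nafamostat over HDM lungs (y axis) against the mean level over the 6 libraries in CPM (x axis, log), with 1 point per tested target. Red points are the 105 called lower, blue points the 15 called higher, and dotted lines mark a 2-fold change; called genes on the lower side reach further from 0 and include abundant transcripts such as Clec7a and Tmsb4x.

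Which genes were called depended on single mice. Leaving out HDM+Nafamostat replicate 3 left 13 genes lower and 1 higher, and leaving out HDM+Nafamostat replicate 2 gave 215 and 26. The counts were 92 and 11 without HDM+Nafamostat replicate 1, 75 and 5 without HDM replicate 1, 114 and 29 without HDM replicate 2, and 67 and 4 without HDM replicate 3. Of the 105 genes called lower, 11 were called in all 6 of these fits, and of the 15 called higher, 0 were. Without HDM+Nafamostat replicate 3, 1957 targets had an unadjusted p under 0.05 in edgeR, against 3087 with all 6 libraries. In that fit the log2 fold change was -1.96 for Ear6 (-2.12 with all 6), -1.55 for Ccl8 (-1.54) and 0.93 for Ptprb (0.96). It moved further for others, such as Timp3, at 0.52 (0.76 with all 6). Of the 109 named genes that passed, 0 changed direction there. Of the genes named below, 12 passed in every one of the 6 fits, and all 12 were lower: Ear6 and Prg2, which eosinophils make, the chemokine Ccl8, the chemokine receptor Cxcr6, the cytokine Il17a, the lectin receptor Clec7a, the gluconeogenic enzyme Fbp1, the secreted protein Wfdc17, the respiratory chain subunit Uqcrq, and Rnf7, Rwdd1 and Ngdn.

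**Figure D2:**
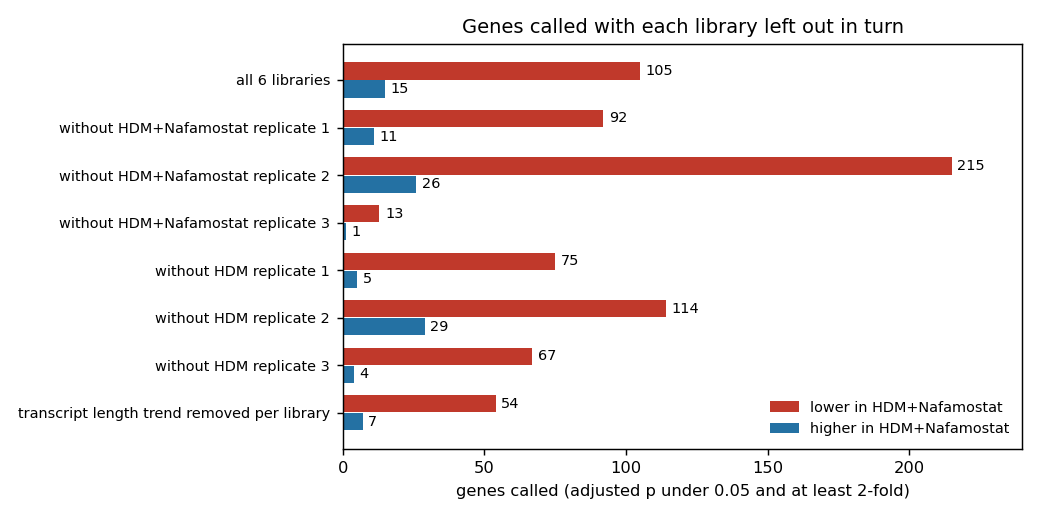
Number of genes called lower (red) and higher (blue) in HDM+Nafamostat lungs with all 6 libraries, with each library left out in turn and with the trend on transcript length removed. The bars for the fit without HDM+Nafamostat replicate 3 are the shortest, at 13 and 1.

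The direction of change also went with transcript length. Among targets whose longest annotated transcript is under 600 bases the median log2 fold change was -0.67 (206 targets), and it was -0.38 from 600 to below 1000 bases, -0.23 from 1000 to below 1500, -0.11 from 1500 to below 2500, -0.01 from 2500 to below 4000, 0.09 from 4000 to below 6000 and 0.19 at 6000 bases and over (1997 targets). Genes called lower had a median length of 1662 bases and genes called higher one of 5484 bases, against 3310.5 bases over all targets with a length. By library, the median log2 deviation of targets under 1000 bases from the mean of the 6 libraries was -0.07, -0.14 and -0.26 in HDM+Nafamostat libraries, against 0.04, 0.08 and 0.30 in HDM libraries and -0.34 to -0.14 in PBS libraries. When each library's trend on length was removed, a step added after the data were seen, 54 genes were called lower and 7 higher, of which 51 and 5 were also called without it. The genes below that passed are given with whether they passed in that fit too. Of the named genes that had not passed, Ager and Ctgf passed in it. The part of length, or of anything that goes with length, in these differences was not tested.

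**Figure D3:**
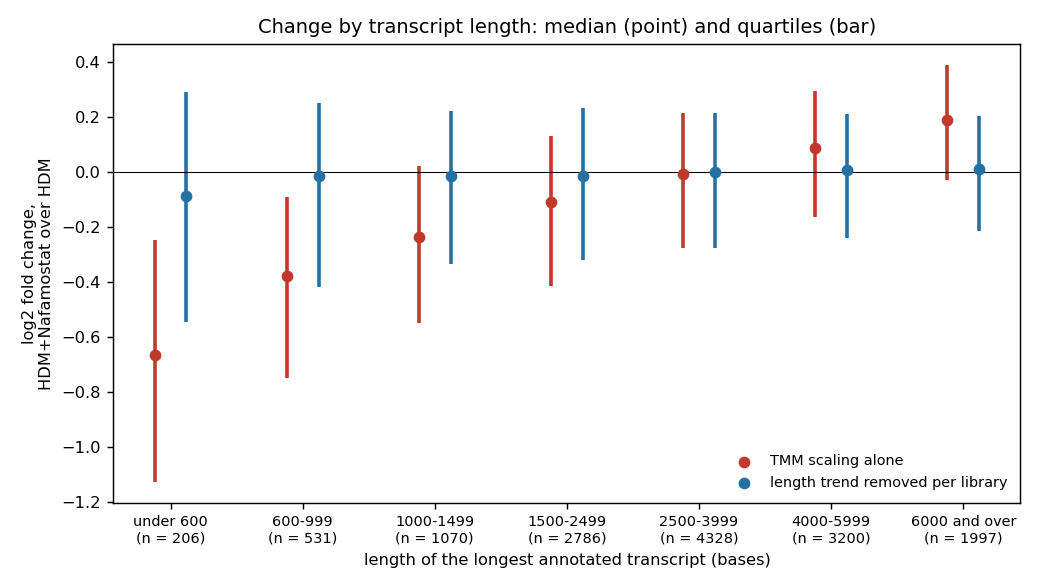
Median (point) and quartiles (bar) of the log2 fold change of HDM+Nafamostat over HDM lungs for 7 classes of transcript length, with TMM scaling alone (red) and after each library's trend on length was removed (blue). The red medians climb from -0.67 in the shortest class to 0.19 in the longest, and the blue ones stay between -0.09 and 0.01.

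The eosinophil ribonucleases Ear6 and Rnase2a and the granule protein Prg2 fell in HDM+Nafamostat lungs. Of 11 tested members of the eosinophil list, 4 fell, 0 rose, and all 11 had a negative change, with a median of -0.65. Ear6 is an eosinophil-associated ribonuclease of the mouse. Ear6 had 55.5, 70.1 and 43.6 CPM in HDM+Nafamostat lungs, against 263, 188 and 282 CPM in HDM lungs and 29.0 ± 13.8 CPM (SD, n = 4) in PBS lungs. All 3 HDM+Nafamostat lungs lay below all HDM lungs, and the lowest of them lay within the PBS range, whose highest lung had 49.4 CPM. Ear6 fell by 2.12 ± 0.19 on the log2 scale (SE, edgeR adjusted p = 0.000416). Rnase2a, of the same ribonuclease family, had 671, 561 and 547 CPM in HDM+Nafamostat lungs, against 1726, 1079 and 1262 CPM in HDM lungs and 1.83 ± 0.734 CPM (SD, n = 4) in PBS lungs. The groups did not overlap, and the HDM+Nafamostat lungs stayed above every PBS lung. Rnase2a fell by 1.19 ± 0.17 on the log2 scale (SE, edgeR adjusted p = 0.00706). Prg2, the major basic protein of eosinophil granules, had 19.6, 23.8 and 20.2 CPM in HDM+Nafamostat lungs, against 64.9, 55.7 and 45.1 CPM in HDM lungs and 0.469 ± 0.490 CPM (SD, n = 4) in PBS lungs, again without overlap. Prg2 fell by 1.38 ± 0.17 on the log2 scale (SE, edgeR adjusted p = 0.00343). Alox15, an arachidonate 15-lipoxygenase of eosinophils and macrophages, fell (log2 fold change -0.74, edgeR adjusted p = 0.0179). The eosinophil lectin Siglecf had a log2 fold change of -0.52 and did not pass (edgeR adjusted p = 0.0998). Epx, the peroxidase that defines eosinophil granules, was low in every library, at 0.127 to 2.00 CPM in HDM+Nafamostat lungs and 0.929 to 1.74 CPM in HDM lungs. Rnase2a and Alox15 missed the threshold when HDM+Nafamostat replicate 3 was left out (edgeR adjusted p = 0.0649 to 0.114), and Alox15 did so without HDM replicate 1 (0.0564). After removal of the trend on length, all 4 passed.

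Because Ear6 and Rnase2a are paralogs that moved together, the 250 bases before their starts (RefSeq, GRCm38.p6) are shown, with the stretches of at least 12 bases that the 2 windows share in capitals. The Ear6 window is chr14:51853518-51853767 on the plus strand and the Rnase2a window is chr14:51256113-51256362 on the minus strand.
Ear6: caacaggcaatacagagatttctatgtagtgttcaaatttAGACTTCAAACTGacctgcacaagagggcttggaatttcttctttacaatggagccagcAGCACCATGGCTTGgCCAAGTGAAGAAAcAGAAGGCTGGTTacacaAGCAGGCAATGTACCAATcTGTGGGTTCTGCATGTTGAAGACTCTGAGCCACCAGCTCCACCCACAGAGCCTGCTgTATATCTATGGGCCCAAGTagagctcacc
Rnase2a: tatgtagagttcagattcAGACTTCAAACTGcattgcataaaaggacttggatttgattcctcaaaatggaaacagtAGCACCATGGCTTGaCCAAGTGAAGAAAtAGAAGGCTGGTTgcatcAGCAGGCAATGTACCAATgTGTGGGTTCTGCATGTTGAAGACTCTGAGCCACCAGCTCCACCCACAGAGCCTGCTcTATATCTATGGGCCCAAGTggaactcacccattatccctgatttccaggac
The windows share 7 such stretches, the longest of 56 bases, and 202 of 272 aligned positions are identical (74.3%). The longest coding transcripts of Ear6 and Rnase2a are 56.5% identical, and that of Ear6 is 71.4% identical to Rnase2b, 63.5% to Ear2 and 63.0% to Ear1. Ear2 and Ear1 were not analysed here, and reads of family members that match these amplicons may be counted under Ear6 or Rnase2a, so that the level of each is uncertain to that extent.

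Ccl8, Ccl11, Ccl9 and Ccl6, chemokines that draw eosinophils, T cells and myeloid cells, fell. Of 11 tested eotaxins and monocyte-attracting CC chemokines, 4 fell and 0 rose, with a median log2 fold change of -0.83, which was -0.30 with the trend on length removed. Ccl8, a ligand of Ccr8 in the mouse that draws type 2 helper T cells, had 428, 387 and 419 CPM in HDM+Nafamostat lungs, against 1096, 880.4 and 1602 CPM in HDM lungs and 6.66 ± 2.35 CPM (SD, n = 4) in PBS lungs. The HDM+Nafamostat lungs were close to each other and lay below every HDM lung and far above every PBS lung. Ccl8 fell by 1.54 ± 0.19 on the log2 scale (SE, edgeR adjusted p = 0.00343). Ccl11, or eotaxin-1, a ligand of the eosinophil receptor Ccr3, had 64.2, 41.4 and 46.7 CPM in HDM+Nafamostat lungs, against 117, 99.6 and 116 CPM in HDM lungs and 2.52 ± 0.602 CPM (SD, n = 4) in PBS lungs, with no overlap. Ccl11 fell by 1.13 ± 0.17 on the log2 scale (SE, edgeR adjusted p = 0.00706). Eotaxin-2, Ccl24, had 17.7, 23.0 and 36.2 CPM in HDM+Nafamostat lungs, against 44.3, 48.1 and 44.5 CPM in HDM lungs, and did not pass (log2 fold change -0.83, edgeR adjusted p = 0.0554). The myeloid chemokine Ccl9 had 481, 815 and 632 CPM in HDM+Nafamostat lungs, against 1423, 1104 and 1343 CPM in HDM lungs. Ccl9 fell by 1.01 ± 0.18 on the log2 scale (SE, edgeR adjusted p = 0.0156). Its neighbour on chromosome 11, Ccl6, had 1400.4, 1766 and 1249 CPM in HDM+Nafamostat lungs, against 3328, 2436 and 2905 CPM in HDM lungs. Ccl6 fell by 0.97 ± 0.17 on the log2 scale (SE, edgeR adjusted p = 0.0133). In all 4 of these genes that fell, the HDM+Nafamostat lungs stood above the PBS mean. Among chemokines of T cells, Ccl20, which draws Ccr6-bearing cells, fell (log2 fold change -1.51, edgeR adjusted p = 0.0377), and Ccl17, a ligand of Ccr4, had a log2 fold change of -0.67 and did not pass (edgeR adjusted p = 0.055), its log2 fold change being -0.18 with the trend on length removed. Among 6 neutrophil-attracting CXC chemokines, 4 changes were negative and 2 positive, with a median of -0.39. In this list 1 gene fell, Cxcl5 (log2 fold change -0.94, edgeR adjusted p = 0.0488), and Cxcl1 at -0.84 did not pass. When HDM+Nafamostat replicate 3 was left out, 5 of the 6 genes above that had passed missed the threshold (edgeR adjusted p = 0.0642 to 0.214), and 1 or 2 of Cxcl5 and Ccl20 did so when HDM+Nafamostat replicate 1 and HDM replicates 1, 2 and 3 were left out 1 at a time (0.0601 to 0.139). When the trend on length was removed, 4 of these 6 passed, and Cxcl5 and Ccl20 did not (edgeR adjusted p = 0.0831 to 0.0869).

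The cytokine Il17a, which T helper 17 cells and gamma delta T cells make, fell. Il17a had 1.40, 2.53 and 1.26 CPM in HDM+Nafamostat lungs, against 14.1, 7.64 and 12.3 CPM in HDM lungs and 0 in all 4 PBS lungs. Every HDM+Nafamostat lung lay below every HDM lung. Il17a fell by 2.71 ± 0.36 on the log2 scale (SE, edgeR adjusted p = 0.0038). When the trend on length was removed, Il17a passed. Of the 10 tested members of the IL-17 axis list, 1 passed, which was Il17a, and the related Il17f had 5 counts in HDM replicate 3 and 0 in each of the other 9 libraries. The 250 bases before the starts of Ccl8 (chr11:82114935-82115184, plus strand) and Il17a (chr1:20730655-20730904, plus strand) are shown because these 2 ligands passed in every fit with a library left out. Capitals mark the letters TATAAA, found 32 and 31 bases before the starts.
Ccl8: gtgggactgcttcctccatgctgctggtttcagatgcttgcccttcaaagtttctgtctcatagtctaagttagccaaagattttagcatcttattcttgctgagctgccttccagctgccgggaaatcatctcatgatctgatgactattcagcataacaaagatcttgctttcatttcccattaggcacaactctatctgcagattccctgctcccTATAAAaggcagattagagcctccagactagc
Il17a: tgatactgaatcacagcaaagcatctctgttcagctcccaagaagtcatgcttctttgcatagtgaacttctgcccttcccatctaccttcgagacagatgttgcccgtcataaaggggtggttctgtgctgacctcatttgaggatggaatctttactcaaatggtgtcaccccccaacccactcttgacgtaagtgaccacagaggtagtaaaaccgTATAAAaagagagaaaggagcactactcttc
TATAAA, searched on both strands, lay in 12.8% of the 78 windows of genes called lower that RefSeq gave, in 0 of 11 windows of genes called higher and in 7.58% of 10869 windows of all tested genes.

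Of 14 tested members of the list of type 2 cytokines, alarmins and receptors, 0 passed and all 14 had a negative change, with a median of -0.61. Il13, which drives mucus production, had 1.65, 1.32 and 2.42 CPM in HDM+Nafamostat lungs, against 5.67, 4.24 and 5.57 CPM in HDM lungs and 0 in all 4 PBS lungs. The groups did not overlap, but the change did not pass (log2 fold change -1.51 with a standard error of 0.40, edgeR adjusted p = 0.0578). Il4, the cytokine of class switching to IgE, had 1.02, 0.220 and 0.420 CPM in HDM+Nafamostat lungs, against 3.59, 1.27 and 2.52 CPM in HDM lungs (edgeR adjusted p = 0.133). Il5, the growth factor of eosinophils, had 1.14, 0.771 and 0.420 CPM in HDM+Nafamostat lungs, against 1.62, 0.424 and 4.11 CPM in HDM lungs, with overlap (edgeR adjusted p = 0.362). At these depths 3 counts correspond to 0.310 to 0.422 CPM, and the lowest libraries of Il4 and Il5 were near that level. The alarmin Il33, which is stored in epithelial and stromal nuclei, had 199.9, 223 and 238 CPM in HDM+Nafamostat lungs, against 304, 257 and 309 CPM in HDM lungs, without overlap, and did not pass (log2 fold change -0.40, edgeR adjusted p = 0.103).

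Among 20 chemokine receptors tested, 1 fell and 1 rose. Cxcr6, the receptor for Cxcl16 on T cells and innate lymphoid cells, had 15.4, 15.5 and 17.7 CPM in HDM+Nafamostat lungs, against 50.9, 36.9 and 42.5 CPM in HDM lungs and 6.68 ± 2.07 CPM (SD, n = 4) in PBS lungs. The 3 HDM+Nafamostat lungs lay close together, below every HDM lung and above every PBS lung. Cxcr6 fell by 1.42 ± 0.17 on the log2 scale (SE, edgeR adjusted p = 0.00343). Ccrl2, a non-signalling receptor that binds chemerin, had 55.7, 45.1 and 47.0 CPM in HDM+Nafamostat lungs, against 28.9, 32.3 and 31.2 CPM in HDM lungs and 58.4 ± 5.65 CPM (SD, n = 4) in PBS lungs. Ccrl2 rose by 0.68 ± 0.15 on the log2 scale (SE, edgeR adjusted p = 0.0309). The eosinophil receptor Ccr3 had 5.72, 5.28 and 2.10 CPM in HDM+Nafamostat lungs, against 5.44, 3.54 and 4.51 CPM in HDM lungs, with overlap, and its change of -0.05 turned to 0.0040 with library totals as the scaling. After HDM+Nafamostat replicate 3 was dropped, Ccrl2 missed the threshold (edgeR adjusted p = 0.121), as in the fits that left out HDM+Nafamostat replicate 1 and HDM replicates 1, 2 and 3 1 at a time (0.0573 to 0.0947). In the fit without the trend on length, Cxcr6 and Ccrl2 passed.

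Clec7a and related C-type lectin receptors of myeloid cells fell. These receptors bind sugars of microbes and allergens, and several signal through the Fc receptor gamma chain. Of 23 tested members of the list, 4 fell and 0 rose, with a median log2 fold change of -0.33. Clec7a, or dectin-1, the receptor for beta-glucans, had 996, 1169 and 907 CPM in HDM+Nafamostat lungs, against 2753, 2039 and 2799 CPM in HDM lungs and 124 ± 56.8 CPM (SD, n = 4) in PBS lungs. Every HDM+Nafamostat lung lay below every HDM lung, and the lowest of them, at 907 CPM, was above the highest PBS lung, at 202 CPM. Clec7a fell by 1.31 ± 0.16 on the log2 scale (SE, edgeR adjusted p = 0.00343). Its window of 250 bases (chr6:129472780-129473029, minus strand) is shown because it holds a spaced palindrome of the STAT6 type, in capitals, 131 to 122 bases before the start.
Clec7a: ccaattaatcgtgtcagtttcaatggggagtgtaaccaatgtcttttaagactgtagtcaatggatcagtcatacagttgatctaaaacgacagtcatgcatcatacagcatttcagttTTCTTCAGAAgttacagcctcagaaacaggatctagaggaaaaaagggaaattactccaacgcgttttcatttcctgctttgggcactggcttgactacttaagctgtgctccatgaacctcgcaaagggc
The palindrome of TTC and GAA with 4 bases of any kind between them, which reads the same on both strands, lay in 5.13% of the 78 windows of genes called lower, in 0 of 11 of genes called higher and in 4.54% of all 10869, and the shares were 6.41%, 9.09% and 6.29% for the closer-spaced TTCNNNGAA, 2.56%, 0% and 2.40% for GAGGAAGT, 16.7%, 0% and 12.1% for CCGGAAG and 3.85%, 0% and 2.69% for GAAA repeated after 2 bases of any kind. These motifs were searched on both strands, GAGGAAGT and CCGGAAG share the letters GGAAG, and no motif lies wholly within another. On chromosome 6 as well, Clec4n, or dectin-2, had 51.3, 69.4 and 49.8 CPM in HDM+Nafamostat lungs, against 106, 88.8 and 121 CPM in HDM lungs. Clec4n fell by 0.89 ± 0.16 on the log2 scale (SE, edgeR adjusted p = 0.0156). Clec4a2 and Clec4a3, receptors of the dendritic cell immunoreceptor family, also fell, by 0.83 and 1.13 on the log2 scale (edgeR adjusted p = 0.0159 and 0.0273), and the reads of these related genes could be shared. Fcer1g, the Fc receptor gamma chain, had 271, 364 and 328 CPM in HDM+Nafamostat lungs, against 489, 379 and 423 CPM in HDM lungs, without overlap, and did not pass (log2 fold change -0.42, edgeR adjusted p = 0.118), and its log2 fold change was -0.019 with the trend on length removed. With HDM+Nafamostat replicate 3 left out, Clec4n, Clec4a2 and Clec4a3 missed the threshold (edgeR adjusted p = 0.114 to 0.14), and Clec4a3 did so when HDM+Nafamostat replicate 1 and HDM replicate 3 were left out 1 at a time (0.0602 to 0.0696). Once length was taken into account in this way, 3 of these 4 passed, and Clec4a3 did not (edgeR adjusted p = 0.0668).

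Fbp1, Mmp12, Arg1 and other genes of monocyte-derived and alternatively activated macrophages fell. Of 21 tested members of the monocyte-derived and lipid-handling list, 8 fell and 0 rose, with a median log2 fold change of -0.76, and of 14 alternatively activated macrophage genes, 4 fell and 0 rose, with a median of -0.51, and with the trend on length removed 4 and 3 of these fell, with medians of -0.61 and -0.19. The list of resident alveolar macrophages had 1 of 14 lower and a median of -0.04. Fbp1, a gluconeogenic enzyme that macrophages also express, had 32.4, 36.7 and 14.7 CPM in HDM+Nafamostat lungs, against 90.7, 85.3 and 119 CPM in HDM lungs and 5.002 ± 0.916 CPM (SD, n = 4) in PBS lungs. The lowest HDM lung had more than 2 times the level of the highest HDM+Nafamostat lung. Fbp1 fell by 1.82 ± 0.26 on the log2 scale (SE, edgeR adjusted p = 0.00706). Mmp12, the macrophage elastase, had 142, 461 and 196 CPM in HDM+Nafamostat lungs, against 1396, 701 and 720.2 CPM in HDM lungs and 5.92 ± 1.44 CPM (SD, n = 4) in PBS lungs, with a wide spread within both exposed groups. Mmp12 fell by 1.82 ± 0.36 on the log2 scale (SE, edgeR adjusted p = 0.0195). Pdcd1lg2, or PD-L2, the inhibitory ligand that IL-4 induces, had 15.5, 20.8 and 24.0 CPM in HDM+Nafamostat lungs, against 54.6, 37.3 and 38.2 CPM in HDM lungs. Pdcd1lg2 fell by 1.11 ± 0.20 on the log2 scale (SE, edgeR adjusted p = 0.0156). Arg1, the arginase of alternatively activated macrophages, had 45.6, 124 and 131 CPM in HDM+Nafamostat lungs, against 335, 207 and 198 CPM in HDM lungs, the first HDM+Nafamostat lung being the lowest of the 3. Arg1 fell by 1.30 ± 0.31 on the log2 scale (SE, edgeR adjusted p = 0.0385). The transcription factor Egr2 fell by 1.60 on the log2 scale (edgeR adjusted p = 0.0267). Trem2, a receptor for lipids, fell by 1.02 and the galectin Lgals3 fell by 1.03 (edgeR adjusted p = 0.0192 and 0.0195). Ms4a7 fell by 1.60, the homotypic receptor Cd84 by 1.51 and the tetraspanin-like Tm4sf19 by 2.25 (edgeR adjusted p = 0.0157, 0.00742 and 0.0317). Without HDM+Nafamostat replicate 3, 9 of the 10 genes above that had passed missed the threshold (edgeR adjusted p = 0.0634 to 0.132), and 1 to 7 of Pdcd1lg2, Egr2, Arg1, Mmp12, Trem2, Lgals3 and Tm4sf19 did so when HDM+Nafamostat replicate 1 and HDM replicates 1, 2 and 3 were left out 1 at a time (0.0502 to 0.12). With the trend on length removed, 7 of these 10 passed, and Arg1, Lgals3 and Tm4sf19 did not (edgeR adjusted p = 0.0724 to 0.0921).

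Not every macrophage transcript passed. Retnla, a secreted hallmark of alternative activation, had 19663, 16890.0 and 19866 CPM in HDM+Nafamostat lungs, against 27953, 21934 and 25877 CPM in HDM lungs and 66.8 ± 17.5 CPM (SD, n = 4) in PBS lungs. The groups did not overlap, yet the change of -0.42 did not pass (edgeR adjusted p = 0.152), and it turned to 0.015 with the trend on length removed. Osteopontin, Spp1, had 259.8, 579.9 and 442 CPM in HDM+Nafamostat lungs, against 1316, 578 and 638 CPM in HDM lungs, where replicate 1 stood above all other libraries (edgeR adjusted p = 0.0843). The glycoprotein Gpnmb likewise had 7.37, 20.6 and 15.2 CPM in HDM+Nafamostat lungs, against 102, 18.2 and 13.9 CPM in HDM lungs, where replicate 1 again stood apart, and did not pass (edgeR adjusted p = 0.128). The scavenger receptor Marco had a positive log2 fold change of 1.64 at 2.67, 3.74 and 8.62 CPM in HDM+Nafamostat lungs, against 1.504, 2.40 and 0.929 CPM in HDM lungs, and did not pass (edgeR adjusted p = 0.0924).

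**Figure D4:**
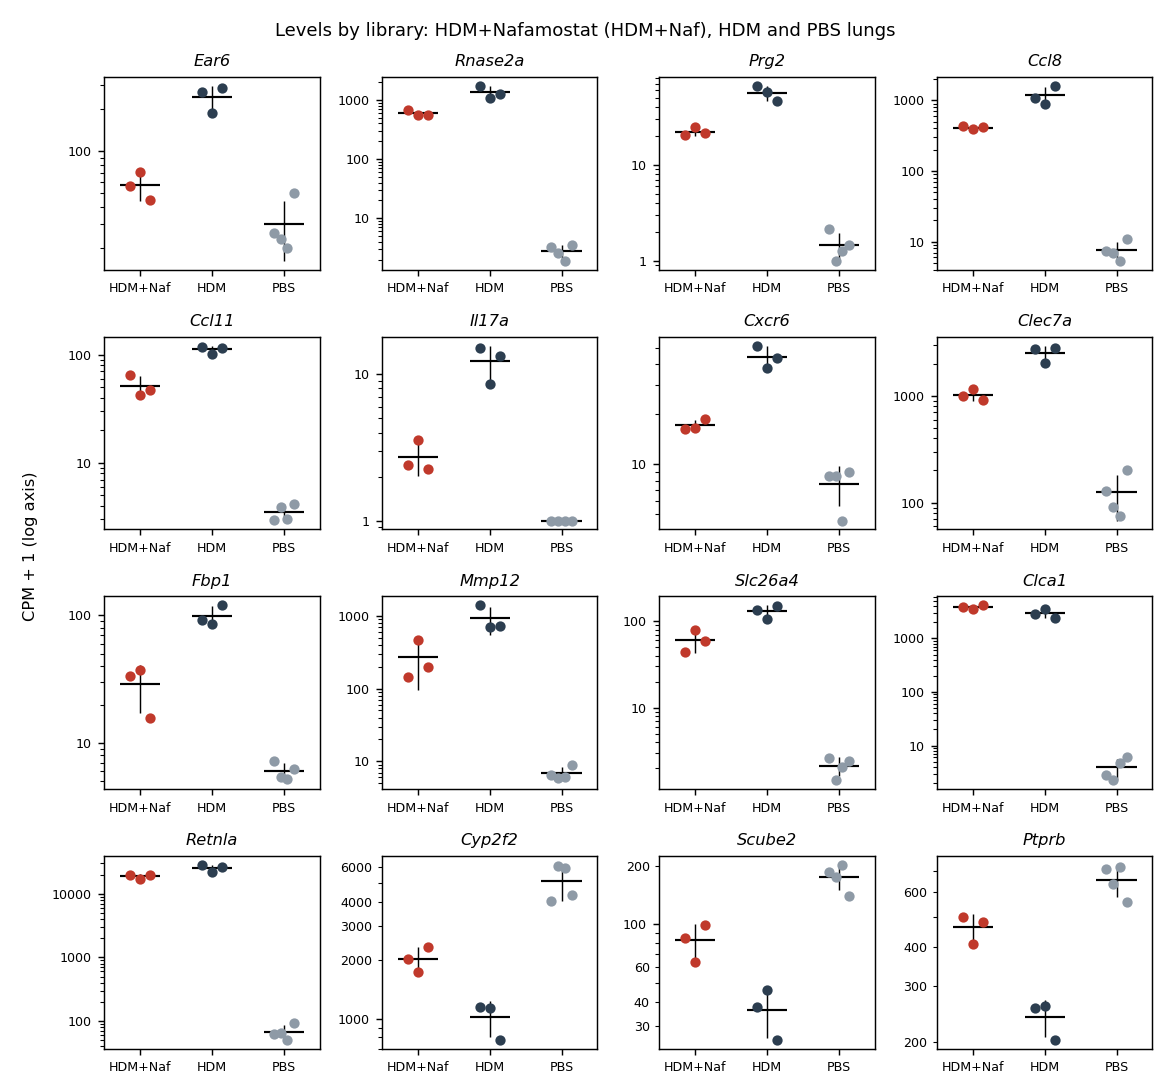
Levels of 16 genes by library, as CPM + 1 on a log axis whose range differs between panels, with HDM+Nafamostat (red), HDM (dark) and PBS (grey) lungs; each point is 1 library, the horizontal line the mean and the vertical line 1 SD. In the panels of Ear6 to Slc26a4 the red points lie below the dark ones, in those of Cyp2f2, Scube2 and Ptprb above them, and in Clca1 they overlap.

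Lymphocyte genes that passed were those of activated T cells and of B and plasma cells. Of 26 tested T cell genes and checkpoints, 4 fell and 0 rose, with a median log2 fold change of -0.35, and of 20 B cell and plasma cell genes, 5 fell and 0 rose, with a median of -0.37, which was -0.20 with the trend on length removed. Pdcd1, or PD-1, the receptor of activated T cells whose ligand Pdcd1lg2 is given above, had 12.1, 15.3 and 15.9 CPM in HDM+Nafamostat lungs, against 38.3, 20.4 and 40.3 CPM in HDM lungs and 1.15 ± 0.924 CPM (SD, n = 4) in PBS lungs. Pdcd1 fell by 1.19 ± 0.24 on the log2 scale (SE, edgeR adjusted p = 0.0195). Tnfrsf9, the costimulatory receptor 4-1BB, had 56.9, 64.2 and 75.6 CPM in HDM+Nafamostat lungs, against 112, 89.1 and 141 CPM in HDM lungs. Tnfrsf9 fell by 0.80 ± 0.17 on the log2 scale (SE, edgeR adjusted p = 0.0271). Rgs1, which dampens chemokine receptor signalling in lymphocytes, fell by 1.74 on the log2 scale (edgeR adjusted p = 0.0156). Of the chains of the T cell receptor complex, Cd3g had a log2 fold change of -0.68 and Cd3e one of -0.05, with 42.8, 31.8 and 42.7 CPM in HDM+Nafamostat lungs, against 55.3, 25.3 and 40.3 CPM in HDM lungs, and neither passed (edgeR adjusted p = 0.0604 and 0.923). The direction of Cd3e turned with library totals as the scaling, at 0.0086. The T cell kinase Zap70 had 4.58, 4.40 and 4.73 CPM in HDM+Nafamostat lungs, against 9.95, 6.93 and 9.69 CPM in HDM lungs, without overlap, and did not pass (edgeR adjusted p = 0.0691). Rgs1, Pdcd1 and Tnfrsf9 missed the threshold when HDM+Nafamostat replicate 3 was left out (edgeR adjusted p = 0.102 to 0.109), and Pdcd1 and Tnfrsf9 did so when HDM+Nafamostat replicate 1 and HDM replicates 1 and 3 were left out 1 at a time (0.0507 to 0.0777). After removal of the trend on length, 2 of these 3 passed, and Tnfrsf9 did not (edgeR adjusted p = 0.051).

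Of the B lineage, Jchain, which joins the units of secreted IgA and IgM, had 514, 324 and 512 CPM in HDM+Nafamostat lungs, against 1008, 846 and 621 CPM in HDM lungs and 111 ± 48.7 CPM (SD, n = 4) in PBS lungs. Jchain fell by 0.87 ± 0.20 on the log2 scale (SE, edgeR adjusted p = 0.0362). Mzb1, an endoplasmic reticulum chaperone of plasma cells, had 35.0, 24.99 and 41.3 CPM in HDM+Nafamostat lungs, against 106, 55.0 and 58.1 CPM in HDM lungs. Mzb1 fell by 1.12 ± 0.24 on the log2 scale (SE, edgeR adjusted p = 0.0291). Plasma cell genes in HDM+Nafamostat lungs lay below all HDM values and above the PBS means. The ectoenzyme Cd38 fell by 1.27 on the log2 scale and the Fc receptor-like Fcrla fell by 1.09 (edgeR adjusted p = 0.0193 and 0.0193). When HDM+Nafamostat replicate 3 was left out, all 4 genes above that had passed missed the threshold (edgeR adjusted p = 0.103 to 0.119), and 1 to 3 of Mzb1, Jchain, Fcrla and Cd38 did so when HDM+Nafamostat replicates 1 and 2 and HDM replicates 1, 2 and 3 were left out 1 at a time (0.0542 to 0.101). When the trend on length was removed, 2 of these 4 passed, and Mzb1 and Jchain did not (edgeR adjusted p = 0.0703 to 0.131).

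In the list of MHC class II and dendritic cell genes, 2 of 16 fell and 0 rose, and all 16 had a negative change, with a median of -0.33. Cd83, a marker of mature dendritic cells, had 41.7, 48.3 and 32.7 CPM in HDM+Nafamostat lungs, against 71.6, 62.4 and 75.9 CPM in HDM lungs. Cd83 fell by 0.78 ± 0.16 on the log2 scale (SE, edgeR adjusted p = 0.0234). The other was H2-Ab1, the beta chain of the class II molecule, whose amplicon gave only 3.18, 4.29 and 2.94 CPM in HDM+Nafamostat lungs, against 15.7, 9.48 and 20.0 CPM in HDM lungs. H2-Ab1 fell by 2.12 ± 0.30 on the log2 scale (SE, edgeR adjusted p = 0.00706). The alpha chain H2-Aa, which pairs with it, had 1263, 1225 and 1291 CPM in HDM+Nafamostat lungs, against 1981, 1426 and 1571 CPM in HDM lungs, without overlap, and did not pass (log2 fold change -0.40, edgeR adjusted p = 0.143). After HDM+Nafamostat replicate 3 was dropped, H2-Ab1 and Cd83 missed the threshold (edgeR adjusted p = 0.0609 to 0.136), and Cd83 did so when HDM replicates 1 and 3 were left out 1 at a time (0.0593 to 0.0622). In the fit without the trend on length, Cd83 and H2-Ab1 passed.

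Of 13 tested neutrophil genes, 1 fell and 0 rose, with a median of -0.47. It was Retnlg, a resistin-like protein of neutrophils, with 292, 280.0 and 228 CPM in HDM+Nafamostat lungs, against 591, 499.9 and 466 CPM in HDM lungs and 15.5 ± 8.65 CPM (SD, n = 4) in PBS lungs. Retnlg fell by 0.96 ± 0.14 on the log2 scale (SE, edgeR adjusted p = 0.00742). The calgranulins S100a8 and S100a9 had log2 fold changes of -1.03 and -1.04 and did not pass (edgeR adjusted p = 0.07 and 0.0779), HDM replicate 1 lying within the range of the HDM+Nafamostat lungs for both. Removal of the trend on length brought the 2 changes to -0.49 and -0.51 and the median of the neutrophil list to -0.28. Of 12 tested mast cell and basophil genes 0 passed, 6 changes being negative and 6 positive, with a median of -0.14. The summed level of the list was 248 to 281 CPM in HDM+Nafamostat libraries, 180 to 220 CPM in HDM libraries and 268 to 356 CPM in PBS libraries. The members named here had low levels and negative changes. The mast cell protease Mcpt1 had 1.40, 0.330 and 1.16 CPM in HDM+Nafamostat lungs, against 5.21, 4.53 and 1.86 CPM in HDM lungs (edgeR adjusted p = 0.0841). The tryptase Tpsb2, an enzyme that nafamostat inhibits, had 2.80, 1.98 and 1.89 CPM in HDM+Nafamostat lungs, against 4.28, 3.96 and 5.44 CPM in HDM lungs (edgeR adjusted p = 0.145). Carboxypeptidase A3, Cpa3, had 3.18, 2.86 and 3.26 CPM in HDM+Nafamostat lungs, against 4.86, 6.79 and 3.32 CPM in HDM lungs (edgeR adjusted p = 0.3). With HDM+Nafamostat replicate 3 left out, Retnlg missed the threshold (edgeR adjusted p = 0.0649). Once length was taken into account in this way, Retnlg did not pass (edgeR adjusted p = 0.0984).

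The goblet cell and mucus list split. Of 17 tested members, 5 fell and 0 rose, while the median was 0.05 and the quartiles were -1.11 and 0.51. The 5 that fell were not mucins. Slc26a4, or pendrin, an anion exchanger that airway epithelium makes under IL-13, had 42.8, 77.7 and 58.3 CPM in HDM+Nafamostat lungs, against 134, 104 and 148 CPM in HDM lungs and 1.13 ± 0.527 CPM (SD, n = 4) in PBS lungs. Slc26a4 fell by 1.11 ± 0.20 on the log2 scale (SE, edgeR adjusted p = 0.0152). Fxyd4, a regulator of the sodium pump, had 24.5, 19.05 and 25.2 CPM in HDM+Nafamostat lungs, against 52.7, 42.0 and 60.4 CPM in HDM lungs and 0.941 ± 0.602 CPM (SD, n = 4) in PBS lungs, without overlap. Fxyd4 fell by 1.17 ± 0.18 on the log2 scale (SE, edgeR adjusted p = 0.00742). The resistin-like protein Retnlb fell by 1.24 on the log2 scale, the serpin Serpinb2 fell by 1.75 and Ramp1, a coreceptor for calcitonin gene-related peptide, by 1.13 (edgeR adjusted p = 0.0195, 0.0122 and 0.0179). Muc5ac, the inducible gel-forming mucin, went the other way without passing, with 118, 153 and 174 CPM in HDM+Nafamostat lungs, against 75.9, 118 and 87.5 CPM in HDM lungs and 3.37 ± 1.21 CPM (SD, n = 4) in PBS lungs (log2 fold change 0.66, edgeR adjusted p = 0.0608). Clca1, a secreted product of metaplastic goblet cells, had 3883, 3484 and 4156 CPM in HDM+Nafamostat lungs, against 2836, 3615 and 2438 CPM in HDM lungs and 2.97 ± 1.73 CPM (SD, n = 4) in PBS lungs. The groups overlapped for Clca1 (log2 fold change 0.37, edgeR adjusted p = 0.21). Without HDM+Nafamostat replicate 3, all 5 genes above that had passed missed the threshold (edgeR adjusted p = 0.0542 to 0.106), and Retnlb did so without HDM replicate 2 (0.0573). With the trend on length removed, 4 of these 5 passed, and Retnlb did not (edgeR adjusted p = 0.143).

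The lists of club, ciliated and alveolar type 1 cells had medians above that of all targets. Of 21 tested club cell genes 2 rose and 0 fell, with a median log2 fold change of 0.49, of 22 ciliated cell genes 2 rose and 0 fell, with a median of 0.39, and of 18 alveolar type 1 cell genes 2 rose and 0 fell, with a median of 0.49. Cyp2f2, the cytochrome P450 that marks club cells of the mouse, had 2029.6, 1741 and 2342 CPM in HDM+Nafamostat lungs, against 1147, 1132 and 775 CPM in HDM lungs and 5108 ± 1070.0 CPM (SD, n = 4) in PBS lungs. The HDM+Nafamostat lungs lay between the other groups without overlap. Cyp2f2 rose by 1.001 ± 0.18 on the log2 scale (SE, edgeR adjusted p = 0.0149). Cyp4b1, another P450 of the bronchiolar epithelium, had 305, 211 and 312 CPM in HDM+Nafamostat lungs, against 181, 178 and 136 CPM in HDM lungs. Cyp4b1 rose by 0.75 ± 0.17 on the log2 scale (SE, edgeR adjusted p = 0.0337). The defining secretoglobin Scgb1a1 had 30034, 22430.0 and 28202 CPM in HDM+Nafamostat lungs, against 23451, 22652 and 20776 CPM in HDM lungs, with overlap (log2 fold change 0.27, edgeR adjusted p = 0.364), and its log2 fold change was 0.76 with the trend on length removed (edgeR adjusted p = 0.0717). Of the ciliated genes, the outer dynein arm heavy chain Dnah5 rose by 1.16 on the log2 scale and Lrrc46, a leucine-rich repeat protein, by 1.11 (edgeR adjusted p = 0.0295 and 0.0195). Foxj1, the master regulator of motile cilia, had a log2 fold change of 0.27 and did not pass (edgeR adjusted p = 0.317). All 4 genes above that had passed missed the threshold when HDM+Nafamostat replicate 3 was left out (edgeR adjusted p = 0.103 to 0.182), and 1 to 3 of Cyp4b1, Lrrc46 and Dnah5 did so when HDM+Nafamostat replicate 1 and HDM replicates 1, 2 and 3 were left out 1 at a time (0.0526 to 0.104). After removal of the trend on length, 3 of these 4 passed, and Dnah5 did not (edgeR adjusted p = 0.0594).

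Of the alveolar type 1 genes, Spock2, a matrix proteoglycan, had 188, 178 and 212 CPM in HDM+Nafamostat lungs, against 118, 112 and 124 CPM in HDM lungs and 255 ± 34.6 CPM (SD, n = 4) in PBS lungs. Spock2 rose by 0.71 ± 0.13 on the log2 scale (SE, edgeR adjusted p = 0.0152). The semaphorin Sema3e rose by 0.63 on the log2 scale (edgeR adjusted p = 0.0422). Ager, the receptor for advanced glycation end products that defines type 1 cells, had 1163, 1274 and 1585 CPM in HDM+Nafamostat lungs, against 913, 958 and 829 CPM in HDM lungs, without overlap, and just missed the threshold (log2 fold change 0.58, edgeR adjusted p = 0.0534), as did caveolin-1, Cav1 (0.61, edgeR adjusted p = 0.0504). Of 21 tested alveolar type 2 genes, 1 fell and 0 rose, with a median of -0.01. It was Chia1, the acidic mammalian chitinase, with 2387, 1495 and 1686 CPM in HDM+Nafamostat lungs, against 3845, 2598 and 3270.4 CPM in HDM lungs and 216 ± 93.0 CPM (SD, n = 4) in PBS lungs. Chia1 fell by 0.80 ± 0.19 on the log2 scale (SE, edgeR adjusted p = 0.0423). When HDM+Nafamostat replicate 3 was left out, Spock2, Sema3e and Chia1 missed the threshold (edgeR adjusted p = 0.106 to 0.223), and 1 or 2 of Sema3e and Chia1 did so when HDM+Nafamostat replicate 2 and HDM replicates 1, 2 and 3 were left out 1 at a time (0.0737 to 0.111). When the trend on length was removed, 1 of these 3 passed, and Sema3e and Chia1 did not (edgeR adjusted p = 0.0869 to 0.11). In that fit Ager passed (edgeR adjusted p = 0.0497) and Cav1 did not (edgeR adjusted p = 0.059).

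Scube2, Tnxb, Abca8a and other stromal genes rose. Of 29 tested fibroblast genes, 5 rose and 0 fell, with a median log2 fold change of 0.49, and of 45 laminins, integrins and matrix glycoproteins, 6 rose and 0 fell, with a median of 0.32. Of 25 collagens 0 passed, with a median of 0.19. The fit without the trend on length gave a median of 0.18, with 1 risen, for the laminins, integrins and matrix glycoproteins, and one of 0.06 for the collagens. For the fibroblast genes it gave a median of 0.36, with 3 risen. Scube2, a secreted carrier of Sonic hedgehog, had 84.4, 63.0 and 97.8 CPM in HDM+Nafamostat lungs, against 36.7, 45.1 and 24.4 CPM in HDM lungs and 175 ± 25.9 CPM (SD, n = 4) in PBS lungs. The groups did not overlap, and the PBS lungs stood above both. Scube2 rose by 1.21 ± 0.21 on the log2 scale (SE, edgeR adjusted p = 0.0152). Tnxb, or tenascin-X, a matrix protein of adventitial fibroblasts, had 46.6, 39.9 and 60.3 CPM in HDM+Nafamostat lungs, against 21.9, 25.5 and 20.4 CPM in HDM lungs and 107 ± 35.2 CPM (SD, n = 4) in PBS lungs, in the same order. Tnxb rose by 1.12 ± 0.18 on the log2 scale (SE, edgeR adjusted p = 0.0109). Abca8a, a lipid transporter, had 86.3, 65.8 and 83.1 CPM in HDM+Nafamostat lungs, against 35.3, 48.4 and 27.1 CPM in HDM lungs and 100 ± 7.24 CPM (SD, n = 4) in PBS lungs. Abca8a rose by 1.09 ± 0.19 on the log2 scale (SE, edgeR adjusted p = 0.0154). The alpha chains of integrins rose as well: Itga1, a collagen receptor, by 0.77, Itga8, the receptor for nephronectin, by 0.62 and Itga6, a laminin receptor, by 0.57 on the log2 scale (edgeR adjusted p = 0.0179, 0.0379 and 0.0352). Nephronectin itself, Npnt, rose by 0.56 and dystroglycan, Dag1, by 0.61 (edgeR adjusted p = 0.0466 and 0.0316). The metalloproteinase inhibitor Timp3 rose by 0.76 (edgeR adjusted p = 0.0378). Of the fibrillar collagens, Col1a1 had a log2 fold change of 0.57 and Col3a1 one of -0.53, and neither passed (edgeR adjusted p = 0.0905 and 0.227). After HDM+Nafamostat replicate 3 was dropped, all 9 genes above that had passed missed the threshold (edgeR adjusted p = 0.0833 to 0.196), and 1 to 6 of Itga8, Npnt, Itga1, Dag1, Itga6 and Timp3 did so when HDM+Nafamostat replicates 1 and 2 and HDM replicates 1, 2 and 3 were left out 1 at a time (0.0536 to 0.17). In the fit without the trend on length, 3 of these 9 passed, and Itga8, Npnt, Itga1, Dag1, Itga6 and Timp3 did not (edgeR adjusted p = 0.058 to 0.0917).

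Of 32 tested Hippo pathway genes, 31 had a positive change, 2 rose and 0 fell, with a median of 0.28, against -0.01 over all targets. Removal of the trend on length brought the median to 0.20, with 1 risen. Fat4, the giant protocadherin upstream of the pathway, had 18.4, 18.2 and 17.3 CPM in HDM+Nafamostat lungs, against 9.14, 11.5 and 9.02 CPM in HDM lungs. Fat4 rose by 0.87 ± 0.19 on the log2 scale (SE, edgeR adjusted p = 0.0324). The kinase Lats2 rose by 0.62 on the log2 scale (edgeR adjusted p = 0.0441), and Ctgf, a target gene of the pathway, had 354, 342 and 371 CPM in HDM+Nafamostat lungs, against 251, 269 and 244 CPM in HDM lungs, without overlap, and did not pass (log2 fold change 0.48, edgeR adjusted p = 0.0502). With HDM+Nafamostat replicate 3 left out, Fat4 and Lats2 missed the threshold (edgeR adjusted p = 0.127 to 0.196), and 1 or 2 of Fat4 and Lats2 did so when HDM+Nafamostat replicate 1 and HDM replicates 1, 2 and 3 were left out 1 at a time (0.0532 to 0.145). Once length was taken into account in this way, neither Fat4 nor Lats2 passed (edgeR adjusted p = 0.0869 to 0.101), while Ctgf did (edgeR adjusted p = 0.0476).

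**Figure D5:**
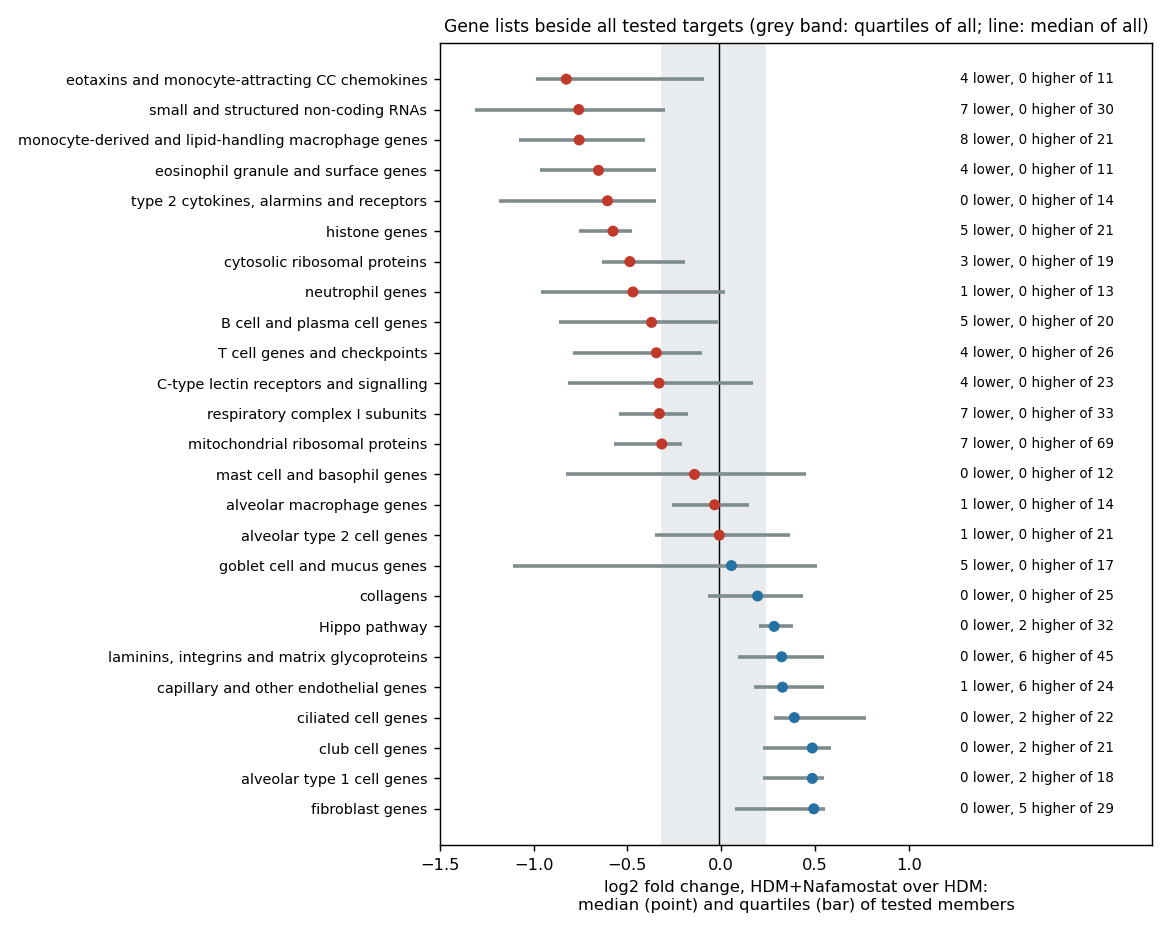
Median (point) and quartiles (bar) of the log2 fold change of HDM+Nafamostat over HDM lungs for the tested members of 25 gene lists, with the quartiles of all 14413 targets as a grey band, and at the right the number of members with an adjusted p under 0.05 in each direction. Lists of inflammatory cells and of short RNAs lie left of the median of all targets, with the monocyte-derived and lipid-handling macrophage genes at -0.76, and lists of club, ciliated and alveolar type 1 cells, endothelium and fibroblasts lie right of it, with fibroblast genes at 0.49.

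Endothelial genes also leaned higher, with 6 of 24 risen, 1 fallen and a median of 0.33. Removal of the trend on length left 3 risen and 0 fallen, with a median of 0.37. Ptprb, the vascular endothelial protein tyrosine phosphatase, had 499.7, 408 and 481 CPM in HDM+Nafamostat lungs, against 254, 259 and 201 CPM in HDM lungs and 656 ± 76.4 CPM (SD, n = 4) in PBS lungs. Its HDM+Nafamostat lungs lay above every HDM lung and below every PBS lung. Ptprb rose by 0.96 ± 0.14 on the log2 scale (SE, edgeR adjusted p = 0.00742). The coreceptor endoglin, Eng, had 568, 541 and 693 CPM in HDM+Nafamostat lungs, against 362, 405 and 372 CPM in HDM lungs. Eng rose by 0.66 ± 0.14 on the log2 scale (SE, edgeR adjusted p = 0.0234). Ednrb, the endothelin B receptor, rose by 0.76 on the log2 scale, the VEGF receptor Flt1 by 0.62 and endocan, Esm1, by 1.35 (edgeR adjusted p = 0.0193, 0.0415 and 0.0432). For Esm1 the value of replicate 1 was the highest of the HDM+Nafamostat lungs, at 67.5, 28.3 and 29.5 CPM, against 19.2, 19.9 and 9.95 CPM in HDM lungs. The tight junction protein Cldn5 was the member that fell, with 75.2, 95.2 and 78.9 CPM in HDM+Nafamostat lungs, against 106, 142 and 159 CPM in HDM lungs and 179 ± 24.7 CPM (SD, n = 4) in PBS lungs. Cldn5 fell by 0.71 ± 0.16 on the log2 scale (SE, edgeR adjusted p = 0.0335). Pecam1, the pan-endothelial adhesion molecule, had 1473, 1341 and 1545 CPM in HDM+Nafamostat lungs, against 1114, 1129 and 1067 CPM in HDM lungs, without overlap, and did not pass (edgeR adjusted p = 0.103). Without HDM+Nafamostat replicate 3, all 6 genes above that had passed missed the threshold (edgeR adjusted p = 0.0609 to 0.212), and 3 or 4 of Ednrb, Eng, Flt1, Esm1 and Cldn5 did so when HDM+Nafamostat replicate 1 and HDM replicates 1, 2 and 3 were left out 1 at a time (0.0568 to 0.139). With the trend on length removed, 3 of these 6 passed, and Flt1, Esm1 and Cldn5 did not (edgeR adjusted p = 0.0529 to 0.099).

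Since nafamostat blocks serine proteases, transcripts of its targets and of their receptors and inhibitors were looked at as groups. Of 23 tested trypsin-like serine proteases and protease-activated receptors, 0 fell and 1 rose, with a median log2 fold change of -0.34. The serine protease Corin was kept in the heart muscle list and is not among these 23, and it fell, as given with that list below. F2rl1, or protease-activated receptor 2, which trypsin and tryptase cleave, had 28.6, 23.8 and 26.7 CPM in HDM+Nafamostat lungs, against 13.8, 18.1 and 14.1 CPM in HDM lungs and 23.8 ± 3.91 CPM (SD, n = 4) in PBS lungs. The HDM lungs lay below both other groups. F2rl1 rose by 0.78 ± 0.18 on the log2 scale (SE, edgeR adjusted p = 0.0359). Coagulation factor X, F10, had 50.1, 81.4 and 72.1 CPM in HDM+Nafamostat lungs, against 138, 88.6 and 95.02 CPM in HDM lungs, and the transmembrane protease Tmprss4 had 21.2, 21.6 and 27.0 CPM in HDM+Nafamostat lungs, against 46.2, 26.5 and 38.1 CPM in HDM lungs. Neither passed (log2 fold changes -0.66 and -0.67, edgeR adjusted p = 0.0787 and 0.0841). Of 28 tested serpins, 4 fell and 0 rose, with a median of -0.42, Serpinb2 being 1 of them. Removal of the trend on length left 2 serpins lower, with a median of -0.34. Serping1, the C1 inhibitor of complement and kallikrein, had 148, 199 and 113 CPM in HDM+Nafamostat lungs, against 261, 243 and 372 CPM in HDM lungs and 255 ± 38.7 CPM (SD, n = 4) in PBS lungs. Serping1 fell by 0.93 ± 0.20 on the log2 scale (SE, edgeR adjusted p = 0.0287). Serpina3g, of a mouse cluster of near-identical serpins whose reads could be shared, fell by 1.08, and Serpinb9, the granzyme B inhibitor, by 0.70 on the log2 scale (edgeR adjusted p = 0.0102 and 0.047). Wfdc17, a small secreted protein with a whey acidic protein domain of the kind found in protease inhibitors, had 141, 176 and 137 CPM in HDM+Nafamostat lungs, against 377, 279.8 and 398 CPM in HDM lungs. Wfdc17 fell by 1.22 ± 0.16 on the log2 scale (SE, edgeR adjusted p = 0.00343). Of F2rl1, Serpina3g, Serping1, Serpinb9 and Wfdc17, which had passed, 4 missed the threshold when HDM+Nafamostat replicate 3 was left out (edgeR adjusted p = 0.0833 to 0.225). In F2rl1, Serping1 and Serpinb9, 1 to 3 did so when HDM+Nafamostat replicate 1 and HDM replicates 1, 2 and 3 were left out 1 at a time (0.0591 to 0.113). After removal of the trend on length, 3 of the 5 passed, and Serping1 and Serpinb9 did not (edgeR adjusted p = 0.0577 to 0.059).

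Of 31 tested lipid mediator enzymes and receptors, 4 fell and 0 rose, with a median of -0.20. Beside Alox15, they were the thromboxane synthase Tbxas1, the secreted phospholipase Pla2g2d and Alox5ap, which serves leukotriene synthesis. Alox5ap had 125, 113 and 113 CPM in HDM+Nafamostat lungs, against 192, 147 and 169 CPM in HDM lungs. Alox5ap fell by 0.54 ± 0.13 on the log2 scale (SE, edgeR adjusted p = 0.0491). Tbxas1 fell by 0.85 and Pla2g2d by 1.26 on the log2 scale (edgeR adjusted p = 0.0314 and 0.0405). When HDM+Nafamostat replicate 3 was left out, Tbxas1, Pla2g2d and Alox5ap missed the threshold (edgeR adjusted p = 0.178 to 0.212), and 1 to 3 of Tbxas1, Pla2g2d and Alox5ap did so when HDM+Nafamostat replicates 1 and 2 and HDM replicates 1, 2 and 3 were left out 1 at a time (0.0502 to 0.134). When the trend on length was removed, 1 of these 3 passed, and Pla2g2d and Alox5ap did not (edgeR adjusted p = 0.0662 to 0.207).

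Uqcrq, Ndufb8 and other nuclear genes of mitochondrial complexes fell. Of 33 tested subunits of complex I, 7 fell and 0 rose, with a median of -0.33, of 12 of complex III 3 fell, with a median of -0.46, of 14 of complex IV 2 fell, with a median of -0.38, and of 69 mitochondrial ribosomal proteins 7 fell, with a median of -0.32. With the trend on length removed, the medians were -0.07 for complex I, -0.11 for complex III, 0.01 for complex IV and -0.24 for the mitochondrial ribosomal proteins, and 3, 2, 0 and 3 members fell. Uqcrq, a small subunit of complex III, had 62.8, 68.5 and 46.5 CPM in HDM+Nafamostat lungs, against 142, 136 and 210.2 CPM in HDM lungs and 66.4 ± 17.1 CPM (SD, n = 4) in PBS lungs. The HDM lungs stood above both other groups, which overlapped each other. Uqcrq fell by 1.46 ± 0.19 on the log2 scale (SE, edgeR adjusted p = 0.00343). Uqcrh and Uqcr10, of the same complex, fell by 1.00 and 0.95 on the log2 scale (edgeR adjusted p = 0.00706 and 0.0133). Ndufb8, an accessory subunit of complex I, had 59.6, 48.4 and 35.1 CPM in HDM+Nafamostat lungs, against 114, 109.9 and 188 CPM in HDM lungs and 65.0 ± 25.4 CPM (SD, n = 4) in PBS lungs. Ndufb8 fell by 1.53 ± 0.22 on the log2 scale (SE, edgeR adjusted p = 0.00706). Its partners Ndufb6 and Ndufa11 fell by 1.15 and 0.76 (edgeR adjusted p = 0.0156 and 0.0132). The mitochondrial ribosomal proteins Mrps18a and Mrpl21 fell by 1.36 and 1.28, and the import receptor Tomm22 by 1.15 (edgeR adjusted p = 0.0149, 0.0193 and 0.00817). After HDM+Nafamostat replicate 3 was dropped, 8 of the 9 genes above that had passed missed the threshold (edgeR adjusted p = 0.0601 to 0.121). In the fit without the trend on length, 7 of these 9 passed, and Uqcr10 and Ndufa11 did not (edgeR adjusted p = 0.0809 to 0.124).

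Short structured RNAs and transcripts that most cells use were also among the lower ones. Of 30 tested small and structured non-coding RNAs, 7 fell and 0 rose, with a median log2 fold change of -0.76, and with the trend on length removed the median was -0.05 and 0 of them passed. Rpph1, the RNA of ribonuclease P, had 10966, 10240.0 and 10309 CPM in HDM+Nafamostat lungs, against 18892, 15786 and 18109 CPM in HDM lungs and 15389 ± 2147 CPM (SD, n = 4) in PBS lungs. Rpph1 fell by 0.74 ± 0.15 on the log2 scale (SE, edgeR adjusted p = 0.0207). Terc, the RNA of telomerase, had 2.29, 3.30 and 2.42 CPM in HDM+Nafamostat lungs, against 9.03, 9.34 and 8.63 CPM in HDM lungs. Terc fell by 1.74 ± 0.29 on the log2 scale (SE, edgeR adjusted p = 0.0122). The U8 small nucleolar RNA, Snord118, fell by 2.21 on the log2 scale (edgeR adjusted p = 0.00742). Of 19 tested cytosolic ribosomal proteins 3 fell, with a median of -0.49, among them Rps9 by 0.78 and Rps14 by 0.72 (edgeR adjusted p = 0.0193 and 0.0195). Of 21 histone genes 5 fell, with a median of -0.58, among them the linker histone Hist1h1d by 1.07 and Hist1h2bb by 1.06 (edgeR adjusted p = 0.0109 and 0.0193). Ribosomal protein genes have many processed copies and histone genes near-identical family members, so that their reads may be shared. With the trend on length removed, 0 of the cytosolic ribosomal proteins and 2 of the histone genes fell, and the medians were -0.15 and -0.24. With HDM+Nafamostat replicate 3 left out, all 7 genes above that had passed missed the threshold (edgeR adjusted p = 0.0601 to 0.127), and Rps9, Rps14 and Rpph1 did so when HDM replicates 1 and 3 were left out 1 at a time (0.0526 to 0.112). Once length was taken into account in this way, 1 of these 7 passed, and Rps9, Rps14, Hist1h2bb, Snord118, Terc and Rpph1 did not (edgeR adjusted p = 0.0627 to 0.704). The 1 that passed was Hist1h1d, whose longest annotated transcript has 7425 bases. That fit thus treated it as a long transcript, and its log2 fold change there was -1.265. Whether this length is that of the RNA in these lungs was not tested.

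Of single genes of this kind, Ngdn, a nucleolar protein of ribosome assembly, had 2.29, 2.97 and 2.21 CPM in HDM+Nafamostat lungs, against 10.3, 11.03 and 17.3 CPM in HDM lungs and 7.97 ± 1.14 CPM (SD, n = 4) in PBS lungs. The HDM+Nafamostat lungs lay below every lung of both other groups. Ngdn fell by 2.36 ± 0.30 on the log2 scale (SE, edgeR adjusted p = 0.00343). Rnf7, a ring finger protein of cullin ubiquitin ligases, had 16.4, 17.0 and 14.9 CPM in HDM+Nafamostat lungs, against 45.4, 34.8 and 58.1 CPM in HDM lungs and 28.1 ± 6.30 CPM (SD, n = 4) in PBS lungs, the HDM+Nafamostat lungs again being the lowest. Rnf7 fell by 1.52 ± 0.19 on the log2 scale (SE, edgeR adjusted p = 0.00343). Rwdd1 had 52.2, 58.8 and 49.9 CPM in HDM+Nafamostat lungs, against 104, 104 and 122 CPM in HDM lungs and 70.1 ± 12.2 CPM (SD, n = 4) in PBS lungs. Rwdd1 fell by 1.03 ± 0.13 on the log2 scale (SE, edgeR adjusted p = 0.00343). Of the actin list, Tmsb4x, or thymosin beta-4, which binds actin monomers, had 6950.2, 6521 and 5138 CPM in HDM+Nafamostat lungs, against 11216, 10640.0 and 15500.0 CPM in HDM lungs and 6224 ± 1498 CPM (SD, n = 4) in PBS lungs. Tmsb4x fell by 1.005 ± 0.18 on the log2 scale (SE, edgeR adjusted p = 0.0156). Arpc1b, the leukocyte form of an Arp2/3 complex subunit, fell by 1.11 on the log2 scale (edgeR adjusted p = 0.00706). Of 19 immediate early and heat shock genes 4 fell, among them the transcription factor Atf3 by 0.94 and Chordc1, a partner of Hsp90, by 1.13 (edgeR adjusted p = 0.0467 and 0.00742). Of 34 cell cycle genes 3 fell, among them nucleophosmin, Npm1, by 1.16 and Rpa3, a subunit of replication protein A, by 1.31 (edgeR adjusted p = 0.0295 and 0.0152). Of 10 tested housekeeping genes, which are often used as references, 1 fell, Hprt, by 0.68 (edgeR adjusted p = 0.0351). Without HDM+Nafamostat replicate 3, 7 of the 10 genes above that had passed missed the threshold (edgeR adjusted p = 0.0609 to 0.218), and 1 to 3 of Hprt, Atf3, Npm1 and Tmsb4x did so when HDM+Nafamostat replicates 1 and 2 and HDM replicates 1, 2 and 3 were left out 1 at a time (0.0505 to 0.127). With the trend on length removed, 6 of these 10 passed, and Tmsb4x, Hprt, Atf3 and Npm1 did not (edgeR adjusted p = 0.0585 to 0.102).

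Faim2, Gpr153, Gria1 and Gatsl2 were also called higher. Faim2, an inhibitor of Fas-mediated cell death best known from neurons, had 29.1, 14.2 and 23.0 CPM in HDM+Nafamostat lungs, against 8.45, 10.6 and 7.96 CPM in HDM lungs and 34.3 ± 2.84 CPM (SD, n = 4) in PBS lungs. Faim2 rose by 1.29 ± 0.26 on the log2 scale (SE, edgeR adjusted p = 0.0195). The orphan G protein-coupled receptor Gpr153 had 30.0, 29.0 and 18.8 CPM in HDM+Nafamostat lungs, against 12.8, 14.6 and 9.42 CPM in HDM lungs. Gpr153 rose by 1.07 ± 0.23 on the log2 scale (SE, edgeR adjusted p = 0.0255). The glutamate receptor subunit Gria1 rose by 1.17 on the log2 scale and Gatsl2, of a family of arginine sensors, by 1.01 (edgeR adjusted p = 0.0278 and 0.0278). In each of these 4 genes the HDM+Nafamostat lungs lay above every HDM lung. All 4 genes above that had passed missed the threshold when HDM+Nafamostat replicate 3 was left out (edgeR adjusted p = 0.0601 to 0.162), and 3 or 4 of Faim2, Gpr153, Gria1 and Gatsl2 did so when HDM+Nafamostat replicate 1 and HDM replicates 1 and 3 were left out 1 at a time (0.0523 to 0.0935). After removal of the trend on length, 1 of these 4 passed, and Faim2, Gria1 and Gatsl2 did not (edgeR adjusted p = 0.0569 to 0.0701).

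Transcripts of other tissues were counted too. Of 25 tested liver genes 2 fell and 0 rose, with a median of -1.26, and their summed level was 355 to 463 CPM in HDM+Nafamostat libraries and 289 to 545 CPM in HDM libraries. Apolipoprotein A1, Apoa1, had 0, 0.661 and 0 CPM in HDM+Nafamostat lungs, against 4.86, 7.78 and 2.39 CPM in HDM lungs (edgeR adjusted p = 0.0195), 2 of the HDM+Nafamostat libraries being at 0. Apoa1 reached the minimum count for testing through the HDM libraries, as other liver genes could. The size of its change is therefore uncertain, and the median of the liver list cannot be read as a difference between the groups. Fabp1, a fatty acid-binding protein of liver and gut, fell by 1.26 on the log2 scale (edgeR adjusted p = 0.0418). Albumin, Alb, had 0.508, 73.9 and 0.420 CPM in HDM+Nafamostat lungs, against 54.5, 119 and 17.1 CPM in HDM lungs, and did not pass (edgeR adjusted p = 0.477). Of 16 tested heart muscle genes, which the muscle sleeve of pulmonary veins can give, 13 had a positive change and 3 a negative one, with a median of 0.36. None of them rose past the test and 1 fell, the serine protease Corin, by 1.07 (edgeR adjusted p = 0.0337). Of 4 squamous epithelium genes 1 fell, Ly6d, by 1.03, and of 3 tested erythroid genes 1 rose, the anion exchanger Slc4a1, by 0.86 (edgeR adjusted p = 0.0432 and 0.0459). Of 188 tested olfactory receptors 0 passed, with a median of -2.17. The panel held 1057 such receptors, and the rest stayed below the minimum count for testing. Their summed counts were 12431 in HDM replicate 3, against 1183 and 1770 in HDM replicates 1 and 2. The HDM+Nafamostat libraries held 295, 3778 and 269. A receptor could thus reach the minimum through HDM replicate 3 alone, so this median cannot be read as a difference between the groups. Without the liver and receptor lists, 112 genes were lower and 16 higher. When HDM+Nafamostat replicate 3 was left out, all 5 genes above that had passed missed the threshold (edgeR adjusted p = 0.114 to 0.202), and 2 to 5 of Apoa1, Fabp1, Corin, Ly6d and Slc4a1 did so when HDM+Nafamostat replicates 1 and 2 and HDM replicates 1, 2 and 3 were left out 1 at a time (0.0538 to 0.185). When the trend on length was removed, 2 of these 5 passed, and Fabp1, Ly6d and Slc4a1 did not (edgeR adjusted p = 0.0754 to 0.189).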

How the data were processed

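RNA of the upper left lung lobe was amplified by the study with the AmpliSeq mouse transcriptome panel, 1 amplicon per gene, and sequenced on an Ion S5 XL. The values deposited by the authors are raw read counts per amplicon, whole numbers with differing totals, and the submitters' processing notes name the build mm10. The methods also speak of normalized values from the Torrent Suite software, and the aligner, counter and use of strand are not given in the sources used here, so that overlapping or antisense genes and near-identical copies may share reads. Of 23930 targets, 27 symbols changed by a spreadsheet were read back from the amplicon name.

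The 3 HDM+Nafamostat and 3 HDM libraries, grouped by their labels, were fitted with edgeR 4.0.16 (R 4.3.3) on targets with at least 30 counts summed over the 6 libraries, with TMM scaling, the quasi-likelihood F test and Benjamini-Hochberg adjustment over 14413 targets. PBS libraries entered levels and the 3-group alternative only. Calls needed an adjusted p under 0.05 and a 2-fold or larger change. A list is described by its tested members, their median and the count past the test. Transcript lengths and chromosomes come from GENCODE on GRCm38, and 98.0% of tested targets had a length. For the fit without the length trend, a lowess of each library's log2 deviation on log2 length was used as an offset. Upstream windows of 250 bases come from RefSeq (GRCm38.p6), the window listed at the top where a gene had several, and 10869 tested genes matched.

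Genes were named by a rule: the 16 called lower and the 10 called higher with the smallest p, given no overlap of the libraries and a higher-group mean of 10 CPM or more, the genes the paper names for its lung RNA, up to 6 members with the smallest p from each list and its first 3 as written, and any member of a list of another tissue. The members, lists and rule were chosen with earlier results of these data known. No 2 libraries held the same values, and chi-square per target between replicates of the HDM+Nafamostat or HDM group was 10.9 to 18.9 over 6 pairs. On simulated counts with 14121 targets, of which 200 were changed, the test found 70% of 3-fold and 88% of 6-fold changes of HDM+Nafamostat against HDM, with 1 false call. These counts were drawn independently around a common mean per target. They held no trend on length and no signal of single libraries, so they do not give the rate of false calls in the real data. Alternatives were median-of-ratios factors, library totals, DESeq2 1.42.0, no filter, the filterByExpr filter, all 3 groups in 1 fit, the replicate number as a block, thinning, no fold threshold, a fit without the liver and receptor lists, and each library (or HDM replicate 3 with HDM+Nafamostat replicate 2) left out. Results of some genes that the rule names are not reported here.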

Additional observations from a re-analysis of the deposited data

Results flagged for a closer look

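Within the 4 PBS libraries, 9 of the 150 groups of levels looked at held 1 library that stood apart from the other 3 (its gap to the nearest, as a share of the range, was above Dixon's critical value at the 95% level), where chance gives about 1 in 20. Genes at 0 in all 4 PBS libraries, such as Il17a and Il13, are counted among the 150 although they could not be flagged. In PBS replicate 4, Ccl17 was 10.25 CPM, against a median of 2.82 CPM in the other 3 libraries, Rps9 was 3681 CPM, against 2494 CPM, and Ccr3 was 0.1578 CPM, against 0 in each of the others. In PBS replicate 1, Gpr153 was 35.48 CPM, against a median of 21.78 CPM in the other 3, Scgb1a1 was 33080 CPM, against 38230 CPM, Serpina3g was 27.31 CPM, against 41.96 CPM, and Il5 was 0.1635 CPM, against 0 in each of the others. Cxcr6 was 3.587 CPM in PBS replicate 3, against 7.56 CPM, and Pdcd1lg2 was 0.1454 CPM in PBS replicate 2, against 0 in each of the others. The values of Ccr3, Il5 and Pdcd1lg2 are each 1 count against 0 counts, where a library stands apart by construction, so that these 3 say nothing about the library. The HDM+Nafamostat and HDM groups, with 3 libraries each, were too small for this check.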

How the results depend on the processing

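With 3 mice per group, the number of calls depended on single libraries and on the treatment of transcript length. Against 105 genes lower and 15 higher, no filter on counts gave 206 and 45, no fold threshold 284 and 137, and removal of the trend on transcript length, chosen after seeing the data, 54 and 7. Leaving out a library gave 13 to 215 lower and 1 to 29 higher. Other scalings, DESeq2, the filterByExpr filter, thinning, all 3 groups in 1 fit and removal of the liver and receptor lists gave 88 to 125 lower and 14 to 22 higher. Without the 2-fold requirement, DESeq2 gave 561 lower and 416 higher and the filterByExpr filter 406 and 219, against 284 and 137. The rest of the settings just listed then gave 222 to 340 lower and 132 to 237 higher. In DESeq2, 107 of the 109 named genes that passed kept doing so, but Arg1 did not (DESeq2 adjusted p = 0.0847), and Apoa1 was given no adjusted p there. Among named genes that had not passed, 17 did there, such as Ager, Ctgf and Retnla (DESeq2 adjusted p = 0.000962, 0.00137 and 0.0131). The cause of these differences was not tested.

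The labels do not say whether replicate numbers pair the samples. The deviations of same-numbered libraries from their group means correlated at -0.050, -0.099 and -0.20, and those of differently numbered ones at -0.14 to 0.22. Deviations within a group of 3 constrain each other, so these values cannot tell whether libraries shared a batch. The replicate block gave 0 lower and 0 higher, with 1136 targets at an unadjusted p under 0.05 in edgeR, against 3087 without it. Under the block, the log2 fold change turned to 0.45 for Epx, 0.38 for Il5 and 0.54 for Cd3e. Genes that did not pass turned elsewhere: Ccr3 to 0.0040 with library totals, with a range of -0.30 to 0.28 over the libraries left out, Retnla to 0.015 with the length trend removed, and Cd3e to 0.0086 with library totals, 0.074 without both HDM replicate 3 and HDM+Nafamostat replicate 2, 0.0094 with the length trend removed, and -0.29 to 0.24 over the libraries left out. Of the 109 named genes that passed, 0 turned under any setting.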

Other observations

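Several gene groups not described above had few or no members past the test. Of 20 tested interferon-stimulated genes 0 passed, with a median log2 fold change of -0.39, of 11 natural killer and cytotoxic genes 0 passed, with a median of -0.12 that turned to 0.13 with the trend on length removed, and of 19 complement genes 1 fell, with a median of -0.10 (-0.17 in that fit). Among genes of the stroma and vessels, 0 of 18 smooth muscle and pericyte genes passed, with a median of 0.26, and 0 of 7 platelet genes, with a median of 0.23. Of 9 adipocyte genes 0 passed, with a median of 0.74. Of 35 proteasome subunits 0 passed, with a median of -0.24 (-0.10 with the trend on length removed), of 13 ATP synthase subunits 1 fell, with a median of -0.33 that turned to 0.06 in that fit, and of 17 circadian clock genes 0 passed, with a median of 0.15. Over all 14413 targets the median was -0.01, and 1.97% fell and 0.951% rose at an edgeR adjusted p under 0.05.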
